A study of Mus musculus with 6 samples.

Results

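Expression of 10 interferon-γ-inducible GTPase genes was compared between Zfp335-deficient (KO) and control (WT) regulatory T cells (Tregs). The genes were 8 guanylate-binding protein (GBP) genes, Gbp2, Gbp3, Gbp4, Gbp5, Gbp6, Gbp7, Gbp8 and Gbp9, and 2 immunity-related GTPase (IRG) genes, Igtp and Irgm1. They were picked by symbol, and each had 1 row among the 32285 rows of the deposited count table. The 6 bulk RNA-seq libraries, 3 per group, were made from CD4+CD25+ Tregs of C57BL/6 spleens. KO mice were ERCre Zfp335fl/fl, with Zfp335 alleles that Cre recombinase deletes. WT mice are called wild-type littermates in the sample labels and ERCre mice in the study's methods. In ERCre mice, Cre is fused to a mutant estrogen receptor domain that tamoxifen switches on, so deletion is not limited to Tregs. According to the methods, both groups were 6 weeks old and received 3 injections of tamoxifen at 10 mg/mL before they were sacrificed on day 7. The labels do not mention tamoxifen and do not say whether each library came from a separate mouse, so the p-values measure only the spread between these libraries.

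GBPs are large GTPases related to dynamins, and IRGs are smaller GTPases of a neighbouring family. Interferon-γ binds a receptor made of the chains Ifngr1 and Ifngr2, whose kinases Jak1 and Jak2 activate transcription factors that bind a palindromic element called GAS. Interferon regulatory factors such as Irf1 and complexes that hold Stat2 and Irf9 bind an element called ISRE. In infected cells GBPs and IRGs gather on vacuoles that hold parasites or bacteria and help break them open. T cells express them too, and Irgm1 is needed in mice for CD4+ T cells to survive exposure to interferon-γ.

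The stretches upstream of transcription starts that hold these elements are shown for members with an entry among the RefSeq promoters of build GRCm38.p6, each read from 250 bases before the start to 50 after it. Of the 10 members, 6 had an entry: Gbp2, Gbp3, Gbp5, Gbp7, Igtp and Irgm1. Gbp4, Gbp6, Gbp8 and Gbp9 had none. The letters searched on both strands were GAAA, any 2 bases and GAAA again for the ISRE core, and TTCNNNGAA, where N is any base, for GAS. Capitals mark matches. The GAS pattern reads alike on both strands, while the ISRE core of the 4 GBP genes lies on the strand opposite to the gene and therefore appears as its reverse complement. Each sequence runs 5′ to 3′ on the strand of its gene, at chr3:142620553-142620614 (plus strand) for Gbp2, chr3:142559934-142560043 (plus) for Gbp3, chr3:142496684-142496893 (plus) for Gbp5, chr3:142530226-142530335 (plus) for Gbp7, chr11:58199446-58199555 (plus) for Igtp and chr11:48871435-48871464 (minus) for Irgm1. Irgm2 (chr11:58214867-58214976, plus) and Tgtp1 (chr11:48992247-48992356, minus), 2 other IRG genes, are shown because they share the arrangement of the Igtp elements.
Gbp2: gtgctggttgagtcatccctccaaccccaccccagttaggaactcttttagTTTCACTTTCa
Gbp3: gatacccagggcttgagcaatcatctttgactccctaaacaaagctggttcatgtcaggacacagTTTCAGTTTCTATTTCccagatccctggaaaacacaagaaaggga
Gbp5: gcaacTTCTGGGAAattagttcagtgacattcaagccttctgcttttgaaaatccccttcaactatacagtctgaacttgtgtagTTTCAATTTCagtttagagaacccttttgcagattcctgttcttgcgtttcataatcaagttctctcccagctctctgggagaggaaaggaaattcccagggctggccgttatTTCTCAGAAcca
Gbp7: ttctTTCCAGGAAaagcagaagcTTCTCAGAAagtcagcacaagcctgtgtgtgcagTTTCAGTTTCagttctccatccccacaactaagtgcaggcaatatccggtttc
Igtp: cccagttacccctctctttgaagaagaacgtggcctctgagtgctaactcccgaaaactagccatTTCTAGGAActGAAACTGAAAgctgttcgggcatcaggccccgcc
Irgm1: ctagcctgtttcaaGAAATAGAAACCGAAA
Irgm2: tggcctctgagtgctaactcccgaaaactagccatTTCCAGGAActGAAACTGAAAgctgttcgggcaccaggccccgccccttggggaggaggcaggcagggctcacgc
Tgtp1: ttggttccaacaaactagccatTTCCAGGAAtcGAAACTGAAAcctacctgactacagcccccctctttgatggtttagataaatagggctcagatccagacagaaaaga

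An ISRE core was found in 6 of the 6 members with an entry, against 3.43% of all 32817 promoters of the same length. GAS was found in 3 of them, Gbp5, Gbp7 and Igtp, against 8.29% of all promoters. Both shares count promoters, while the members were counted as genes. The 6 members had 7 entries, and the second entry of Gbp3 held neither element. The ISRE core started 59 bases before the start in Gbp2, 53 in Gbp7, 34 in Igtp and 165 in Gbp5. Gbp3 and Irgm1 each held 2 overlapping ISRE cores, which started 45 and 39 bases before the start in Gbp3 and 30 and 24 bases before it in Irgm1. In Igtp, 2 bases lay between the GAS and the ISRE core. That arrangement, on either strand, which was looked for only after the matches had been seen, occurred in 5 of all 32817 promoters, and all 5 belonged to IRG genes: Igtp, Irgm2, Tgtp1, Tgtp2 and Gm12185. These genes are related copies within 1 family. The promoters of Igtp and Irgm2 shared an unbroken run of 61 identical bases downstream of the elements, so the 5 matches are not independent. Of 16 other GBP and IRG genes, 10 had an entry, 7 of them with an ISRE core and 5 with GAS. In the GENCODE annotation (GRCm38), the Gbp7 and Igtp stretches lie before the gene models, and the last 13 bases of the Gbp2 stretch and the last 18 of the Gbp3 stretch lie in annotated exons. The Gbp5 and Irgm2 stretches lie within the annotated introns of these genes, and the Irgm1 stretch lies in an annotated exon. The Tgtp1 stretch lies within its gene model, with 98 bases in introns and 12 in an exon, and overlaps the gene model of Olfr56 on the other strand. A match describes letters and was not tested for binding.

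Library totals ranged from 133283969 to 209041812 counts, and levels are given as CPM, counts scaled to a common library size with factors from the trimmed mean of M values. Zfp335 was 124, 121 and 115 CPM in WT and 14.96, 14.3 and 15.1 CPM in KO (log2 fold change -3.02, SE 0.046, adjusted p = 1.2e-13, by edgeR's quasi-likelihood test). Across 17307 genes tested, 12.1% were lower and 12% higher in KO Tregs at the threshold for calls, an adjusted p under 0.05, and the median log2 fold change was -0.0042. Calls were 50.1% in the lower direction, and 61.4% when only library size was used for scaling. Treg transcripts were abundant in both groups (Foxp3, 1136 CPM in WT and 1052 CPM in KO), and the log2 fold changes of 10 Treg identity genes ranged from -0.15 to 0.65. Summed RNA of markers of B, myeloid, neutrophil and red cells was lower in KO, although single myeloid markers differed in direction. Summed CPM of 6 B cell markers ranged from 52.6 to 56.7 in WT and from 23.1 to 25.3 in KO, with 6 of 6 lower. The sum of 8 myeloid markers ranged from 43.8 to 47.5 and from 28.3 to 31.4 (4 of 8 lower), that of 6 neutrophil markers from 13.3 to 18.5 and from 0.872 to 1.59 (5 of 6 lower), and that of 5 red cell markers from 36.5 to 43.4 and from 1.81 to 2.31 (5 of 5 lower). Of the 8 myeloid markers, 6 had a negative log2 fold change. Lyz2 fell from 19.7 to 7.36 CPM, whereas Csf1r (8.80 CPM in WT and 10.3 CPM in KO) and Adgre1 (1.64 and 1.67 CPM) were not called. NK cell markers were lower in 1 of 4 cases, and CD8 T cell markers in 0 of 2. The female transcript Xist was at 0.272 CPM in WT and 135 CPM in KO. Y-linked RNA was present in both groups, with Eif2s3y at 46.6 CPM in WT and 46.9 CPM in KO, Ddx3y at 103 CPM in WT and 78.7 CPM in KO, Kdm5d at 43.5 CPM in WT and 36.0 CPM in KO and Uty at 17.4 CPM in WT and 11.9 CPM in KO. Every KO library held more Xist than any WT library, and the labels do not give the sex of the mice. A difference in sex make-up therefore cannot be told apart from one of genotype. The part of the marker differences in the results for the GTPase genes and the other genes below was not tested.

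Compared with WT Tregs, KO Tregs had less RNA of all 10 GTPase genes. Of the 10 members, 10 passed the filter on low counts, 10 were lower and 0 were higher, against 12.1% of all genes tested that were lower. Each of the 10 also had all 3 KO libraries below all 3 WT libraries, as did 19.1% of all genes tested, and 0 had all KO libraries above all WT libraries, as did 19.3%. The falls were modest. The median log2 fold change was -0.43, with a range from -0.54 to -0.11. Of the members, 0 of 10 fell by 1.5-fold or more, the fold limit the study used for its other libraries. Among all genes tested, 4.37% were lower by at least 1.5-fold and also had p under 0.05 and adjusted p under 0.1 by edgeR's quasi-likelihood test. Summed over the members, the level was 1356, 1419 and 1443 CPM in the WT libraries and 1067, 1065 and 1098 CPM in the KO libraries. In bulk RNA, fewer cells of a type that express a gene cannot be told apart from less RNA per cell.

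**Figure D1:**
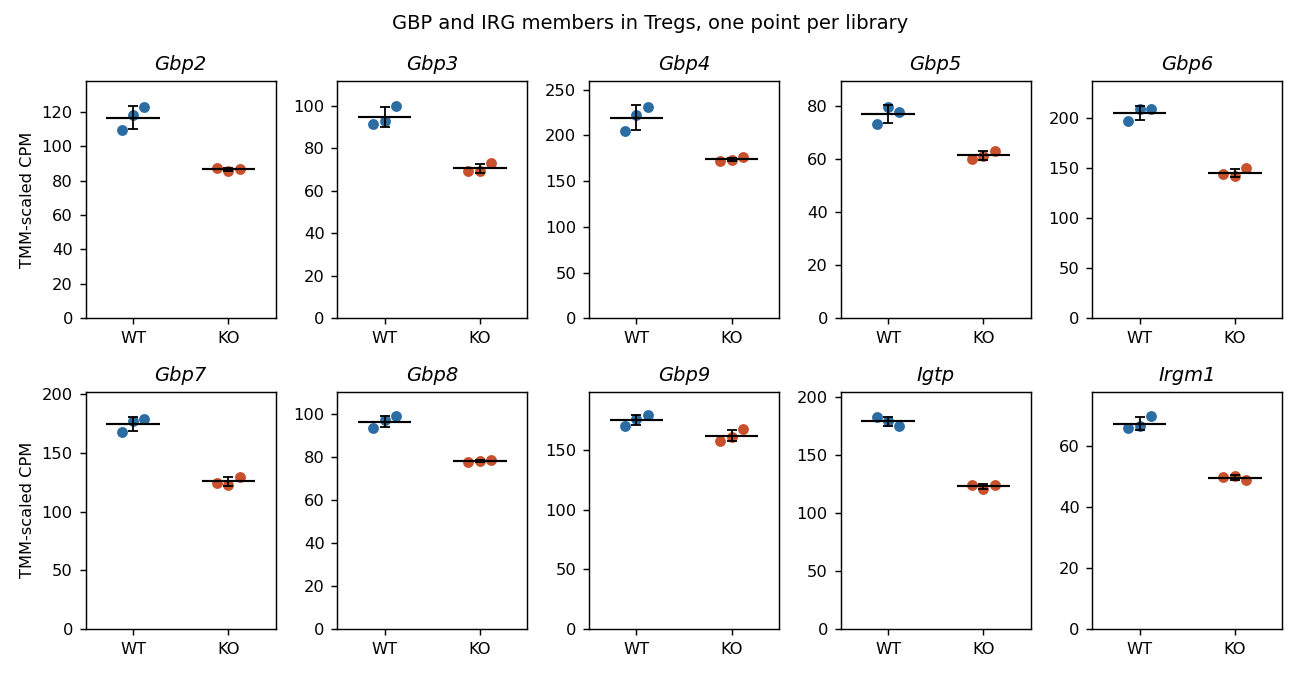
Levels of the 10 members in CPM, each in its own panel with an axis from 0; points are single libraries, horizontal lines are means and error bars are SD (n = 3 per group). In every panel the 3 KO points lie below the 3 WT points, with the widest relative gap for Igtp (log2 fold change -0.54) and the narrowest for Gbp9 (-0.11).

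Of the members, Igtp fell most. Igtp (Irgm3; chr11:58199556-58207591, plus strand) is a regulatory IRG of endoplasmic reticulum membranes that keeps effector IRGs inactive there. Its level was 182, 179 and 175 CPM in WT and 124, 121 and 124 CPM in KO. The groups did not overlap, and the fall in the mean ± SD over 3 libraries, from 179 ± 3.81 to 123 ± 2.02 CPM, was 1.46-fold (log2 fold change -0.54, SE 0.033, adjusted p = 8.87e-08). Igtp shares 11.8% of its 50-base sequences with its neighbour Irgm2, whose gene model it overlaps on the same strand, so reads may be split between the pair. Irgm1 (chr11:48861968-48871683, minus strand), a second regulatory IRG found on Golgi and lysosomal membranes, was 66.0, 66.6 and 69.8 CPM in WT and 49.97, 50.3 and 48.9 CPM in KO. All KO values were again below all WT values (log2 fold change -0.44, SE 0.039, adjusted p = 2.93e-06). Irgm1 shares only 0.379% of its 50-base sequences with other transcripts.

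Members of the chromosome 3 GBP cluster lie side by side on the plus strand. Gbp2 (chr3:142620602-142638008, plus strand), a prenylated GBP that coats vacuoles of Toxoplasma, was 109, 118 and 123 CPM in WT and 87.4, 85.7 and 86.9 CPM in KO. The KO libraries lay close together and below every WT library, and the mean fell by 25.7% (log2 fold change -0.43, SE 0.042, adjusted p = 8.47e-06). Gbp7 (chr3:142530342-142550149, plus strand), which has been linked to assembly of the phagocyte oxidase on vacuoles, was 168, 177 and 179 CPM in WT and 125, 123 and 129.9 CPM in KO. It fell by 28.03% (log2 fold change -0.47, SE 0.037, adjusted p = 9.57e-07), the largest percentage among the members of this cluster. Gbp3 (chr3:142560026-142573209, plus strand) was 91.3, 93.0 and 99.9 CPM in WT and 69.4, 69.5 and 73.1 CPM in KO (log2 fold change -0.42, SE 0.042, adjusted p = 9.32e-06). Gbp5 (chr3:142493978-142522344, plus strand), a prenylated GBP known for promoting assembly of the NLRP3 inflammasome, was 73.3, 79.8 and 78.0 CPM in WT and 60.0, 61.2 and 63.3 CPM in KO. Its fall was the smallest of these members but the groups stayed apart (log2 fold change -0.32, SE 0.042, adjusted p = 9.03e-05).

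Members of the chromosome 5 cluster, all on the minus strand, fell by different amounts. Gbp6 (chr5:105270702-105293698, minus strand) was 197, 209 and 209 CPM in WT and 144, 142 and 150.0 CPM in KO. Its KO libraries were far below its WT libraries, and the fall estimated by the fit was 29.1% (log2 fold change -0.50, SE 0.037, adjusted p = 6.26e-07). Gbp6 shares 70.7% of its 50-base sequences with other transcripts, mostly those of Gm43302 and Gbp10, so its count is uncertain. Gbp4 (chr5:105115767-105139586, minus strand), with the highest CPM of the members in both groups, was 205, 223 and 231 CPM in WT and 172, 173 and 176 CPM in KO (log2 fold change -0.34, SE 0.042, adjusted p = 6.01e-05). Gbp8 (chr5:105014150-105139540, minus strand) was 93.3, 96.8 and 98.7 CPM in WT and 77.5, 77.8 and 78.5 CPM in KO (log2 fold change -0.30, SE 0.036, adjusted p = 3.78e-05). In both genes the KO libraries lay close together and below every WT library.

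Gbp9 (chr5:105077630-105139539, minus strand) changed least. It was 170.4, 176 and 179 CPM in WT and 158, 161 and 168 CPM in KO, so the highest KO library was just below the lowest WT library. The mean fell by 7.41% (log2 fold change -0.11, SE 0.036, adjusted p = 0.037), and the 95% interval -0.19 to -0.034 did not overlap that of any other member, although the differences between genes were not tested. With 1 library fewer, the call was lost when WT replicate 2 (log2 fold change -0.11, adjusted p = 0.132), WT replicate 3 (-0.095, adjusted p = 0.0813), KO replicate 1 (-0.091, adjusted p = 0.171) or KO replicate 2 (-0.11, adjusted p = 0.146) was left out, while the size of the change stayed close to that with all 6 libraries. The gene models of Gbp4, Gbp8 and Gbp9 overlap on the same strand, and Gbp8 shares 18.1% and Gbp9 8.05% of their 50-base sequences with other transcripts.

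The same libraries tended to be lowest or highest for several members. WT replicate 1 had the lowest level of the WT group for 9 of 10 members, all but Igtp, and WT replicate 3 the highest for 8. In the KO group, replicate 3 was the highest for 7 members. These orders were not counted over all genes tested. A difference between whole libraries therefore cannot be told apart from one of the members. Against all genes tested, 9.46% had a log2 fold change below that of Igtp, 12.1% below that of Gbp2 and 31.7% below that of Gbp9. The members were among the more abundant genes, between rank 1070 (Gbp4) and rank 3829 (Irgm1) by average level. Among the 3829 genes at least as abundant as Irgm1, 12.8% were lower and 23% higher in KO.

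**Figure D2:**
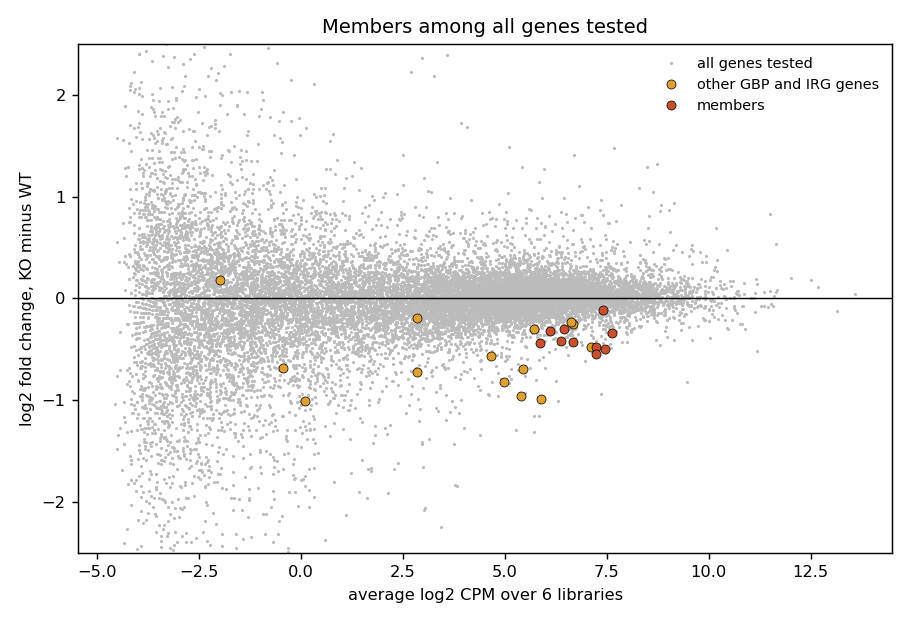
Log2 fold change, KO minus WT, against the average log2 CPM over the 6 libraries for all 17307 genes tested (grey), the other GBP and IRG genes (orange) and the members (red); 158 genes lie outside the plotted vertical range. The 10 members lie between -0.54 and -0.11, all below the zero line and at high average levels.

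Per kilobase of exon, Igtp was the most abundant member, at 88.4 ± 1.88 CPM per kilobase in WT and 60.7 ± 0.998 in KO. Gbp2 followed, at 46.4 ± 2.70 and 34.4 ± 0.343. In WT, Gbp6 (34.4 ± 1.19), Gbp9 (33.9 ± 0.872), Gbp7 (31.2 ± 1.08), Gbp4 (29.3 ± 1.77), Gbp3 (29.0 ± 1.40) and Gbp8 (27.96 ± 0.796) came next. Within this order the libraries of Gbp6 and Gbp9 overlapped, as did those of Gbp7 and Gbp4, Gbp4 and Gbp3, and Gbp3 and Gbp8. Gbp5 (11.6 ± 0.511) and Irgm1 (11.6 ± 0.356) were lowest and overlapped. In KO, Gbp9 (31.4 ± 0.952) stood above Gbp6 (24.4 ± 0.704) with no overlap of libraries. Gbp8 (22.6 ± 0.140), Gbp7 (22.4 ± 0.633) and Gbp3 (21.6 ± 0.642) overlapped their neighbours in the order, while Gbp5 (9.26 ± 0.252) no longer overlapped Irgm1 (8.56 ± 0.132). These levels take all annotated exons of a gene as its length, and the isoforms used in the cells were not measured.

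**Figure D3:**
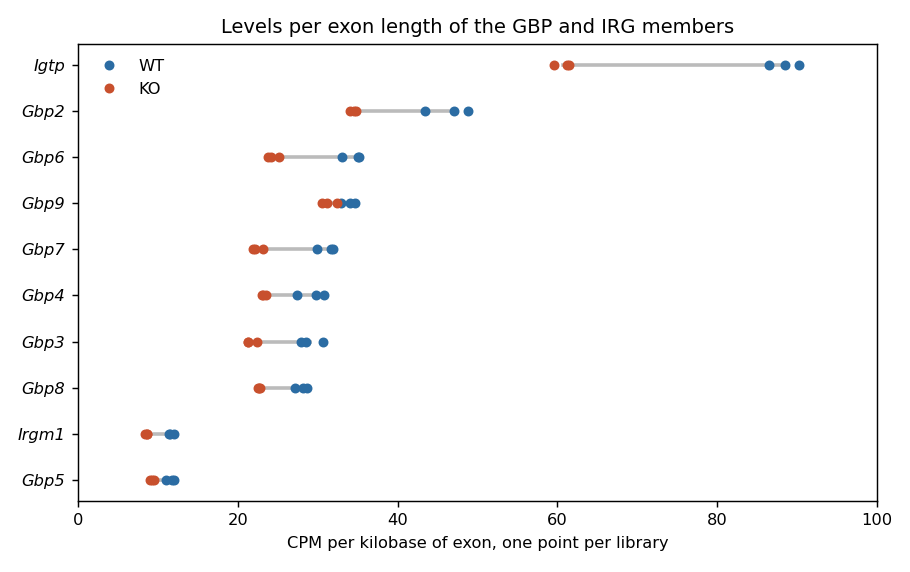
Level of each member in CPM per kilobase of exon, 1 point per library, with grey lines joining the group means of WT (blue) and KO (red). Igtp lies apart at the right in both groups, and the WT and KO points come closest for Gbp9.

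Most other genes of the GBP and IRG families also fell. Of 16 listed, 14 were in the count table and were tested, while Gbp11 and Gm12250 had no row there under these symbols. Of these 14, 11 were lower and 0 higher, against 12.1% and 12% of all genes tested. Their median log2 fold change was -0.63. Together with the members, 10 of 10 GBP genes were lower (median -0.38), and so were 11 of 14 IRG genes (median -0.61). The GBP genes of chromosome 3 and of chromosome 5 were lower in 5 of 5 cases each, with medians of -0.43 and -0.30. Gbp2b, the chromosome 3 gene formerly called Gbp1, was 26.3, 30.5 and 33.6 CPM in WT and 20.6, 20.7 and 19.4 CPM in KO (log2 fold change -0.57, SE 0.075, adjusted p = 0.000126). Gbp10, which shares 84.1% of its 50-base sequences with other transcripts, mainly Gbp6, had a log2 fold change of -0.30 (adjusted p = 8.88e-05).

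Several effector IRGs, the class that inserts into vacuole membranes, had larger fold changes than any member. Tgtp1 was 71.2, 80.1 and 83.2 CPM in WT and 40.9, 38.1 and 39.5 CPM in KO, and Tgtp2 was 50.3, 57.4 and 60.1 CPM in WT and 26.9, 28.6 and 30.4 CPM in KO. All KO libraries were below all WT libraries for both genes (log2 fold change -0.98, adjusted p = 4.1e-08 for Tgtp1, and log2 fold change -0.96, adjusted p = 3.77e-07 for Tgtp2). They are near copies that share 81.2% and 86.6% of their 50-base sequences with other transcripts, so their single counts are uncertain. Iigp1, an effector IRG known for loading onto Toxoplasma vacuoles, was 39.4, 38.6 and 41.8 CPM in WT and 22.2, 22.6 and 23.1 CPM in KO (log2 fold change -0.82, SE 0.047, adjusted p = 5.51e-08). Irgm2, a Golgi-associated regulatory IRG, was 53.9, 54.2 and 53.9 CPM in WT and 33.7, 33.8 and 32.4 CPM in KO (log2 fold change -0.70, SE 0.040, adjusted p = 4.54e-08). Irgm2 fell by 38.3%, whereas Igtp fell by 31.3% and Irgm1 fell by 26.2%. Ifi47, the effector also called Irgd, was the most abundant IRG gene after Igtp, at 161, 166 and 158 CPM in WT and 116, 115 and 117 CPM in KO (log2 fold change -0.48, SE 0.033, adjusted p = 2.64e-07). Low-level Gm4951 (1.42 to 0.716 CPM) and Gm12185 (8.96 to 5.39 CPM) were lower by log2 fold changes of -1.01 and -0.73. The pair 9930111J21Rik1 and 9930111J21Rik2 had the smallest falls among the IRG genes called, with log2 fold changes of -0.25 and -0.23. They share 83.2% and 59.8% of their 50-base sequences with other transcripts, mostly each other, so their single counts are uncertain too. Another 3 genes did not pass the test: F830016B08Rik (log2 fold change -0.68, adjusted p = 0.0633), Gm5431 (log2 fold change -0.19, adjusted p = 0.131) and Irgc1 (log2 fold change 0.18, adjusted p = 0.792), the last of which was at 0.222 CPM in WT and 0.262 CPM in KO.

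**Figure D4:**
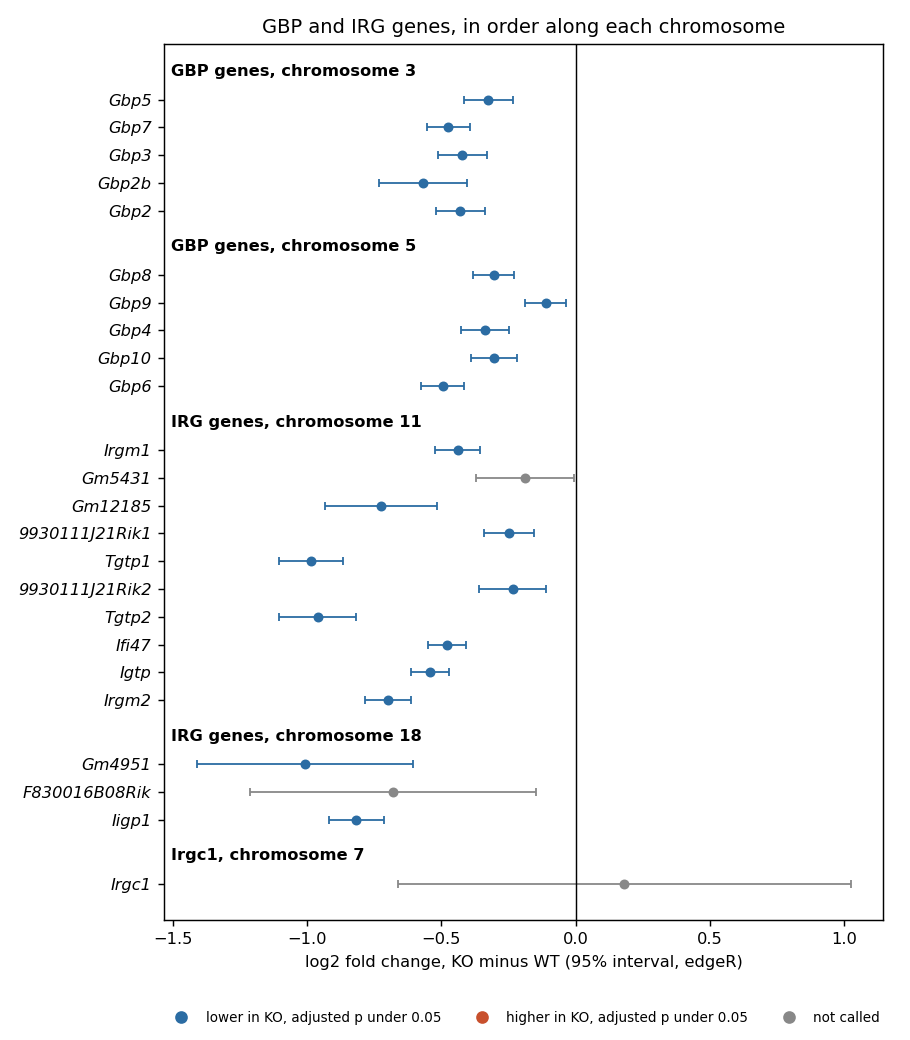
Log2 fold change, KO minus WT, with its 95% interval from edgeR for the 10 members and 14 other GBP and IRG genes, in their order along each chromosome; blue marks genes called lower in KO and grey genes that were not called. All 10 GBP genes lie left of zero, and Tgtp1, Tgtp2 and Gm4951 lie near -1.

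Genes listed for the interferon-γ pathway did not all move the same way. The list holds ligand and receptor genes, factors and inhibitors. Not all of them act upstream of the GTPase genes, and some belong to type I interferon signalling or regulate MHC genes. Of 19 such genes, 5 were lower and 5 higher in KO, with a median log2 fold change of 0.040. Among all genes tested, 12.1% were lower and 12% higher. The ligand and part of the receptor were higher. Ifng itself was 9.99, 8.32 and 8.501 CPM in WT and 15.4, 13.3 and 15.04 CPM in KO. Its KO libraries all exceeded its WT libraries (log2 fold change 0.70, SE 0.083, adjusted p = 4.45e-05). Of the receptor chains, Ifngr2 was 52.3, 51.7 and 54.7 CPM in WT and 70.2, 69.4 and 70.5 CPM in KO, with no overlap (log2 fold change 0.41, SE 0.038, adjusted p = 4.85e-06). Ifngr1, the ligand-binding chain, averaged 169 CPM in WT and 177 CPM in KO, and its groups overlapped (log2 fold change 0.072, adjusted p = 0.328). The kinase gene Jak2 was higher (log2 fold change 0.18, adjusted p = 0.00289), and Jak1 was not called (log2 fold change 0.059, adjusted p = 0.175).

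Among 7 transcription factors and co-activators, 4 were lower and 0 higher (median -0.20), against 12.1% lower and 12% higher among all genes tested. Stat2, which acts in type I interferon signalling, was 137, 138 and 138 CPM in WT and 112, 114 and 112 CPM in KO. Its KO libraries were all below its WT libraries (log2 fold change -0.29, SE 0.032, adjusted p = 2.09e-05). Irf9, the DNA-binding part of the complex that holds Stat2, fell from 165 to 149 CPM (log2 fold change -0.15, adjusted p = 0.00385). Irf8 was lower too (log2 fold change -0.20, adjusted p = 0.00291). Irf1, the interferon regulatory factor that acts at ISREs after interferon-γ, was 336, 330.4 and 338 CPM in WT and 349, 343 and 337 CPM in KO. Those groups overlapped, and the 95% interval -0.032 to 0.10 of its log2 fold change (log2 fold change 0.035, adjusted p = 0.465) spanned zero. Ciita, the master regulator of MHC class II genes, was at a low level and fell from 6.22 to 2.46 CPM (log2 fold change -1.34, adjusted p = 1.46e-06). In mice Ciita and MHC class II genes are expressed mainly by B and myeloid cells. Their summed marker RNA was lower in these KO libraries, with mixed single myeloid markers, as given above. The part of those cells in this fall was not tested. Nlrc5, the corresponding regulator of MHC class I genes, was not called (log2 fold change -0.063, adjusted p = 0.265), and neither was Batf2 (log2 fold change -0.38, adjusted p = 0.75), which was at 0.121 CPM in WT and 0.0873 CPM in KO.

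Of 7 inhibitors of the pathway, 1 was lower and 2 were higher, against 12.1% lower and 12% higher among all genes tested. The list is too short to set these counts apart from those shares. Socs3 rose (log2 fold change 0.31, adjusted p = 2.4e-05), as did the phosphatase gene Ptpn11 (log2 fold change 0.13, adjusted p = 0.0197), and Usp18, an interferon-induced inhibitor of type I interferon receptors, fell (log2 fold change -0.33, adjusted p = 0.000213). The call for Ptpn11 was lost whenever WT replicate 2 or any single KO library was left out, with adjusted p from 0.0564 to 0.0874.

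**Figure D5:**
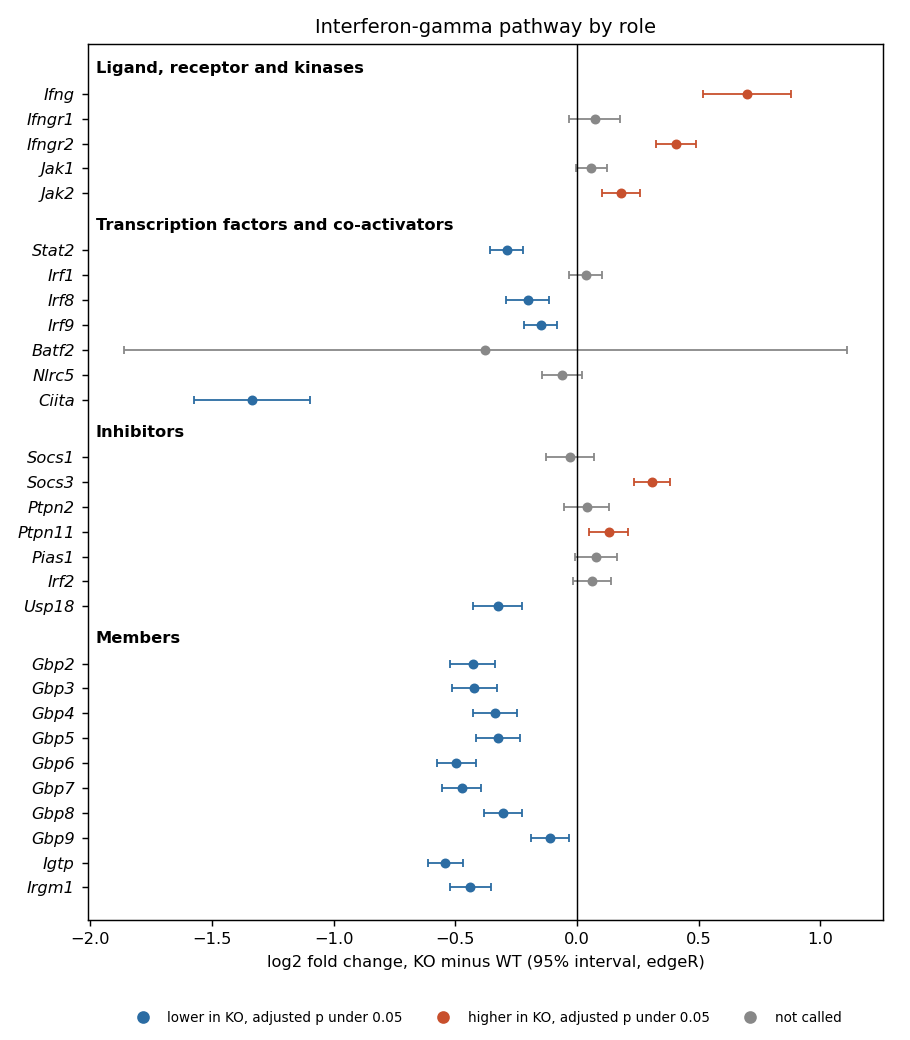
Log2 fold change, KO minus WT, with its 95% interval from edgeR for 19 interferon-γ pathway genes by role and, at the bottom, the 10 members; blue marks genes called lower in KO, red those called higher, and grey genes that were not called. Ifng (0.70) and Ifngr2 (0.41) lie right of zero, Stat2 (-0.29) lies left of it, and all 10 members lie left of it.

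Other genes that interferon-γ induces moved in both directions, more of them lower. Of 18 listed, 15 were tested, of which 6 were lower and 2 higher (median -0.062), and 11 of 15 had a negative log2 fold change. Among all genes tested, 12.1% were lower and 12% higher, so the count of 2 higher cannot be set apart from that share. Serpina3g, a protease inhibitor gene of activated T cells (log2 fold change -0.42, adjusted p = 1.31e-05), and the immunoproteasome subunit gene Psmb9 (log2 fold change -0.27, adjusted p = 0.000144) were lower, and so were Wars, Psmb8, Psmb10 and Psme1, with log2 fold changes from -0.19 to -0.12. Cd274, which encodes PD-L1 (log2 fold change 0.32, adjusted p = 5.55e-05), and the adhesion molecule gene Icam1 (log2 fold change 0.22, adjusted p = 0.00131) were higher. Of 24 genes induced mainly by type I interferon, 23 were tested. Of these 23, 13 were lower and 0 higher, against 12.1% and 12% of all genes tested. Their median was -0.23, against -0.43 for the members. The largest of these changes were those of the nucleotide kinase gene Cmpk2 (log2 fold change -0.56, adjusted p = 1.18e-05), Ifit1, which binds viral RNA (log2 fold change -0.50, adjusted p = 2.47e-05), Xaf1 (log2 fold change -0.48, adjusted p = 1.28e-05) and Oasl2 (log2 fold change -0.38, adjusted p = 0.0112).

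Genes whose products work with GBPs and IRGs did not fall together. For comparison, 12.1% of all genes tested were lower and 12% higher. Conjugation of the ubiquitin-like proteins LC3 and GABARAP guides IRGs and GBPs to vacuoles. Of 9 genes of that machinery, 5 were higher and 0 lower (median 0.17), with the largest changes in Gabarapl1 (18.02 to 26.1 CPM, log2 fold change 0.53, adjusted p = 1.31e-05), Map1lc3b (225 to 288 CPM, log2 fold change 0.36, adjusted p = 1.88e-06), Atg12 (log2 fold change 0.20, adjusted p = 0.0018) and Atg7 (log2 fold change 0.19, adjusted p = 0.00713). Of 6 inflammasome genes, which act downstream of GBPs, 3 were lower and 0 higher: Casp1 (log2 fold change -0.39, adjusted p = 0.00182), Pycard (log2 fold change -0.30, adjusted p = 0.000319) and Nlrp3 (log2 fold change -0.90, adjusted p = 0.0413), the last at under 1 CPM in each library and no longer called in 9 of 17 alternatives. The part of the lower marker RNA of other cell types in these falls was not tested. Of 5 genes of the prenylation pathway that adds a lipid anchor to Gbp2 and Gbp5, 1 was higher, the protease gene Rce1 (log2 fold change 0.15, adjusted p = 0.0195). That count cannot be set apart from the share of all genes that were higher.

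By level over the 6 libraries, genes outside these lists whose pattern was among the 5 most like that of the members were Samhd1 (Pearson r = 0.999 with the mean standardized log2 CPM of the members), Polr3f (0.999), Ccnb2 (0.997) and Gm4070 (0.997), out of 10955 genes compared. Samhd1, a nucleotide hydrolase that restricts retroviruses, fell from 997 to 872 CPM, and Gm4070 from 513 to 375 CPM. Polr3f, a subunit gene of RNA polymerase III, fell from 26.1 to 14.4 CPM. These correlations describe the 6 libraries. They share the same 2 groups, so a gene that fell with little spread within the groups has a high value.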

How the data were processed

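Bulk RNA-seq of CD4+CD25+ splenic Tregs was analyzed in 3 WT and 3 KO libraries, which were grouped by the sample labels. The authors deposited 1 table of unnormalized counts with 32285 rows, each named by a gene symbol. Symbols recur in 40 rows; no list gene used here depended on a repeated row. Per the labels, RNA libraries were made with a TruSeq kit from total RNA, and the processing notes name HISAT2, DESeq2 and mm10. The tool that made the counts, its annotation and its use of strand are not given in the sources used here, so reads of overlapping genes may be counted for either gene, and reads that match several copies of a gene may be split or dropped. Counts of 1 (620 entries) and 2 (1045) were rarer in the table than counts of 4 (2579), so the deposited counts may not be single reads, and totals may overstate depth.

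Genes were filtered with filterByExpr, scaled by trimmed mean of M values (TMM) and tested with edgeR 4.0.16 (quasi-likelihood F-test, R 4.3.3) on all 6 libraries, without covariates. P-values were adjusted by the Benjamini-Hochberg method over 17307 genes, and genes with an adjusted p under 0.05 were called. SD and n refer to 3 libraries per group. An exact permutation test of 3 against 3 libraries cannot give a p below 0.1, so it was not used. Replicate numbers were checked for pairing: deviations from the group means correlated by 0.052, -0.0099 and -0.027 between libraries of the same number, so the numbers were not used as pairs. No library was a copy of another. Marker RNA was summarized as summed CPM.

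The members, gene lists and tests were chosen with earlier results of these data known, so counts over a list are descriptions with no p of their own. Named genes were the members, Zfp335 and the genes of the other GTPase, receptor and factor lists. Up to 4 called genes with the largest change in each further list and the 5 genes most correlated with the members were also named. Foxp3, Csf1r, Adgre1, Xist and 4 Y-linked genes were named for the check of the libraries, and Wars, Psmb8, Psmb10 and Psme1 to complete a count. Some genes of these lists are not reported here and were left out of the counts given for pathway, factor and red cell genes. Gene positions, exon lengths and shared 50-base sequences came from GENCODE (GRCm38) and promoters from RefSeq (GRCm38.p6). Alternatives were other scalings (RLE, upper quartile, library size), DESeq2 1.42.0, limma-voom (limma 3.58.1), other filters, counts divided by 4, a replicate block, leaving out each library, and a fold limit of 1.5 with p under 0.05 and adjusted p under 0.1.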

Additional observations from a re-analysis of the deposited data

How the results depend on the processing

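The 10 members kept their lower direction in 17 of 17 alternative fits, and 9 of them kept their calls in all 17. Gbp9 kept its call in 13 and lost it in 4 fits that each left out 1 library, with log2 fold changes from -0.14 to -0.091 over all fits, so that 9 to 10 members were called when single libraries were left out. With the replicate number as a block, 10 members were lower and 4227 genes were called (2084 lower and 2143 higher), and no member changed its call; the block ended only the call of Nlrp3 among named genes. With a limit of 1.5-fold added, 0 of 10 members were called lower, against 4.37% of all genes tested, and 1203 genes were called in all instead of 4170. In that setting DESeq2 also gave 0 members. Without the fold limit, 10 of 10 members were lower and 0 higher at an unadjusted p under 0.05 by edgeR's quasi-likelihood test. Leaving out single libraries gave 2740 to 4996 called genes, the lowest without WT replicate 2. Direction turned for 4 genes that were called in none of the fits: Irgc1 (-0.052 without KO replicate 3 to 0.41 without KO replicate 2), Jak1 (-0.0045 with quantile normalization), Irf1 (-0.027 with quantile normalization) and Batf2 (from -0.80 to 0.15 when single libraries were left out, the highest without WT replicate 3, and 0.053 without KO replicate 3). The cause was not tested. Calls were lost for Nlrp3 in 9 fits, Ptpn11 in 6, Rce1 in 4, 9930111J21Rik2 in 2 and Oasl2 in 1, and gained for Nlrc5 in 2 and for Ifngr1 and F830016B08Rik in 1 each. Uncertain depth per count, shared sequence between family members and 3 libraries per group limit the precision of each value.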
